A study of Mus musculus with 4 samples.

Results

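Prolactin acts on the mammary gland through a short chain of molecules, and 10 genes of that chain were followed here across mammary glands of Δ16HER2 transgenic mice with and without stathmin. They are the receptor genes Prlr and Ghr, the kinase gene Jak2, the transcription factor genes Stat5a and Stat5b, and the target and effector genes Cish, Socs2, Elf5, Id2 and Gjb2. They were taken as the probes whose RefSeq accession maps to one of these symbols, which gave 18 probes for 10 genes of the 18952 genes named on the array, and every gene had at least 1 probe. The series measured total RNA of mammary glands from pre-neoplastic female mice aged 13 weeks, all of which carried Δ16HER2, a splice form of human HER2. The 2 arrays labelled STM KO (knockout 1 and knockout 2) came from mice lacking stathmin, a tubulin-binding protein that destabilises microtubules, and the 2 arrays labelled WT (WT 1 and WT 2) from mice that kept it. The promoter of the transgene, the strain and the form of the knockout allele are not given in the sources used here. The labels name separate samples without saying whether each came from its own animal or from a pool, so every p-value below measures only the spread between these samples.

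Prolactin binds its receptor on luminal cells of the gland, the receptor-bound kinase JAK2 is activated, and JAK2 phosphorylates STAT5A and STAT5B, which enter the nucleus as dimers and bind the letters TTCNNNGAA in DNA. Growth hormone uses the same kinase and the same transcription factors through its own receptor, which in the gland acts mainly in the stroma and fat. Together with the ETS factor ELF5, STAT5A drives luminal progenitors to become the milk-secreting alveolar cells of pregnancy. CISH and SOCS2 are feedback inhibitors whose genes STAT5 switches on. ID2 is a helix-loop-helix protein that alveolar growth requires, and GJB2 is a connexin that forms gap junctions between alveolar cells.

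The STAT5 letters TTCNNNGAA, which read the same on both strands, were looked for in the RefSeq promoter windows of the members (GRCm38.p6, 250 bases before to 50 after a gene start). The table held windows for 9 of the 10 genes, 15 windows in all, and not for Socs2. The letters were in 2 of these 15 windows, against 8.30% of all 32851 windows in the table. The Cish window is shown because it holds them on 2 occasions, where 0.457% of all windows hold them on 2 or more. Of the 3 Prlr windows, 1 is shown because it holds them in the gene of the receptor itself. Capitals mark the matches, which describe letters and not bound sites.
Cish, chr9:107296409-107296708, plus strand: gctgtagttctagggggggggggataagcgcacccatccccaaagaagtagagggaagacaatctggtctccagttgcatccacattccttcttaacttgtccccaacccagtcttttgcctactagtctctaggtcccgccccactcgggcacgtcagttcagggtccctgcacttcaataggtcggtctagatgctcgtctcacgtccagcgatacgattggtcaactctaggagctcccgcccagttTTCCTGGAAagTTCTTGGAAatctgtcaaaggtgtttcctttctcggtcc
Prlr, chr15:10223656-10223955, plus strand: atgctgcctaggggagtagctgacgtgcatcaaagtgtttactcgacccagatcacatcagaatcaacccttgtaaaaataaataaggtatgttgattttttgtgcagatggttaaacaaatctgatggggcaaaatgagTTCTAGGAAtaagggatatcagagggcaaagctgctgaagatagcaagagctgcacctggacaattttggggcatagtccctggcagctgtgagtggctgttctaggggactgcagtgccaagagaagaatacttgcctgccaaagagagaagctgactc
The Cish matches read TTCCTGGAA, beginning at base 251 of the window, which is the annotated gene start, and TTCTTGGAA, beginning at base 262. The Prlr match reads TTCTAGGAA and begins at base 141.

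On the 4 arrays 54.7% to 66.2% of spots were well above background and none was saturated, and all 4 lay on 1 slide read in 1 scan. The small number of arrays, 2 a group, sets the precision throughout. The brighter Stmn1 probe had signals of 6865 and 1621 on the knockout arrays, against 9222 and 1740 on the WT arrays, so it did not separate the groups. The dimmer probe had 5.57 and 4.84 on the knockout arrays, against 87.6 and 13.8 on the WT arrays, and was well above background on WT 1 alone. Where these probes lie relative to the deleted part is not given in the sources used here, so these probes give no test of the labels, by which the arrays are called here. The labels give an epithelial histotype. All 13 tested luminal epithelial markers were well above background on every array, and so were all 9 adipocyte and all 8 skeletal muscle markers tested. Lymphocyte markers stood apart on 1 array: their 11 signals, each in units of its array's 75th percentile, summed to 2.14 on knockout 1 and 49.0 on knockout 2, against 2.73 on WT 1 and 2.88 on WT 2.

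Across the axis the groups were not separated by the test. Of the 18 member probes 17 were tested, because their spots cleared the scanner software's background test on the 2 arrays of one group or the other. None had an adjusted p under 0.05 (limma, Benjamini-Hochberg over 24183 probes, of which 0.00% passed) and none an unadjusted p under 0.05, against 3.70% of all tested probes. The members' adjusted p ran from 0.935 to 0.994. Both knockout arrays lay above both WT arrays for 1 member probe, of Jak2, against 15.5% of all tested probes. Both lay below for the 2 probes of Id2, against 19.0% of all tested probes. The difference between groups exceeded the gap within either group for the brighter probe of Jak2 and the brighter probe of Id2, which is 2 of 17, against 21.3% of all tested probes. The median log2 fold change was -0.08 over the 17 probes and -0.04 over all tested probes. Levels below are log2 signals minus the 75th percentile of their array, and fold changes are knockout minus WT on that scale. Probes of a gene are numbered from the brightest.

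**Figure D1:**
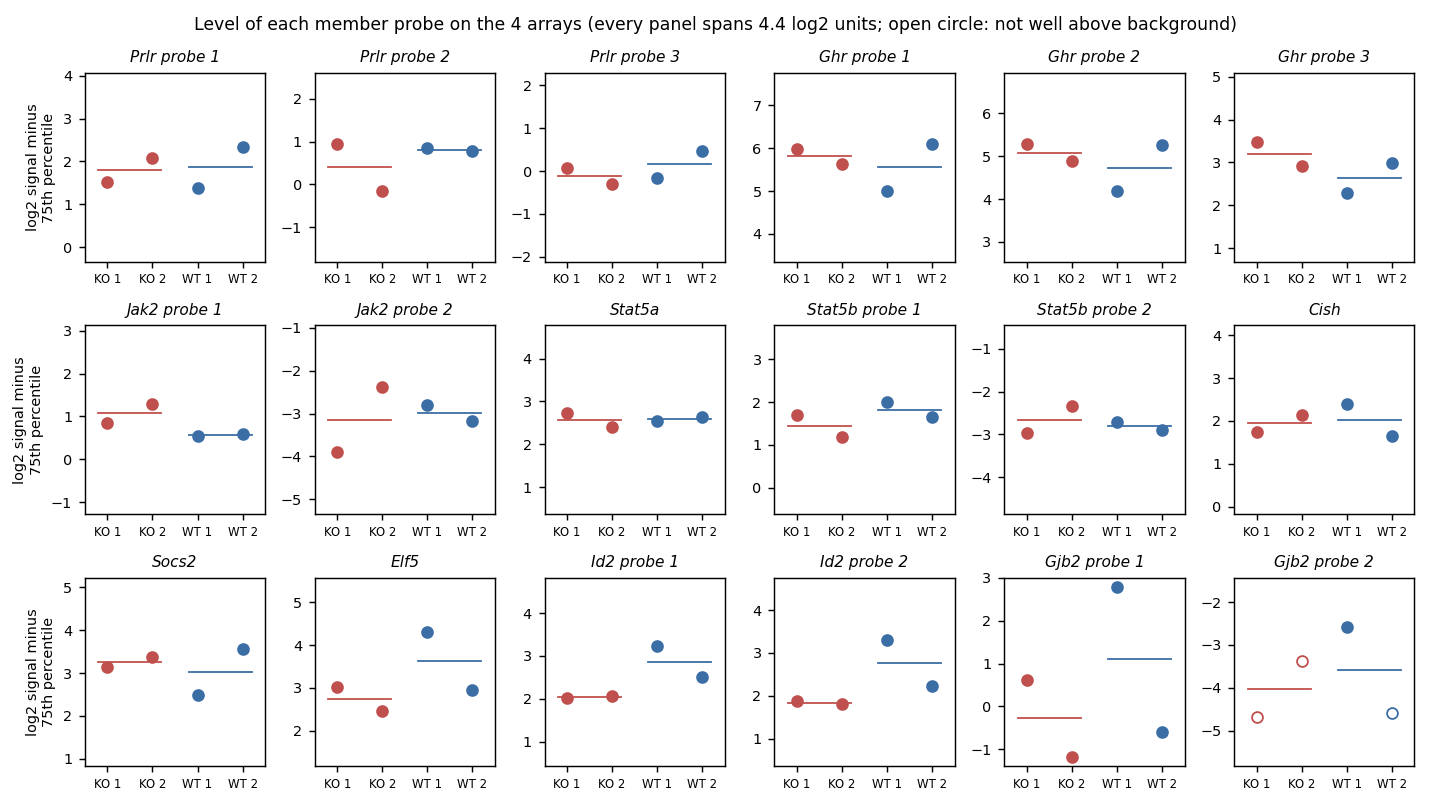
Level of each of the 18 member probes on the 4 arrays, as log2 signal minus the array's 75th percentile, with knockout arrays in red and WT arrays in blue. Each circle is 1 array, open where the probe was not well above background, and lines mark group means. Only Jak2 probe 1 and the 2 Id2 probes have groups that do not overlap. WT 1 stands highest for Elf5, Id2, Gjb2, Cish and Stat5b probe 1.

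The receptor genes came first in the chain. All 3 Prlr probes carry the accession NM_011169, the only Prlr accession among the named probes, and the sources used here do not say which exons they read. Prlr probe 1 (A_52_P458279) read 1.52 on knockout 1 and 2.07 on knockout 2, against 1.39 on WT 1 and 2.33 on WT 2. The WT values enclosed the knockout values, and the log2 fold change was -0.07 ± 0.41 (SE, n = 2 per group, limma adjusted p = 0.987). It turned to 0.11 under median scaling, which adds the same amount to every fold change and put the median of all genes at 0.17 in place of -0.01. Prlr probe 2 (A_52_P602987) read 0.94 and -0.14 on the knockout arrays, against 0.85 and 0.77 on the WT arrays. Here the WT arrays nearly coincided and knockout 2 alone was low, for a log2 fold change of -0.41 ± 0.41, or 0.13 without it. Prlr probe 3 (A_51_P264673) read 0.07 and -0.30 on the knockout arrays, against -0.16 and 0.47 on the WT arrays, a log2 fold change of -0.27 ± 0.32. The probes of this gene thus did not share an order of arrays: knockout 2 was the lowest array on probes 2 and 3 and the second highest on probe 1. The 95% interval for probe 1 ran from -1.11 to 0.97, so a 2-fold difference in either direction lies near its ends. Markers of hormone-sensing luminal cells, which carry the receptor, had negative fold changes for 8 of 8 genes with a median of -0.39. Their mean was -0.12 on knockout 1 and -0.30 on knockout 2, against 0.01 on WT 1 and 0.41 on WT 2, and their part in the Prlr values was not tested.

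Ghr, the growth hormone receptor gene, was measured by 3 probes, all lowest on the same array. Probe 1 (A_51_P499854, NM_010284) had processed signals of 18553 and 7979 on the knockout arrays, against 6110 and 9980 on the WT arrays, which after scaling are levels of 5.99 and 5.64 against 4.996 and 6.11. Probe 2 (A_52_P680935, NM_001048178) read 5.29 and 4.88 on the knockout arrays, against 4.19 and 5.26 on the WT arrays. Probe 3 (A_52_P680941), which carries the same accession as probe 2, read 3.48 and 2.93 on the knockout arrays, against 2.29 and 2.99 on the WT arrays. On all 3 probes WT 1 was the lowest array, and WT 2 lay within or above the knockout values. The log2 fold changes were 0.26 ± 0.43, 0.36 ± 0.43 and 0.57 ± 0.36 (SE, n = 2 per group), each with overlapping groups. Without WT 1 they were -0.29, -0.18 and 0.22. The average of 9 adipocyte markers, with each gene centred on its own mean, was also lowest on WT 1. It was 0.12 and 0.02 on the knockout arrays, against -0.40 on WT 1 and 0.26 on WT 2. Adipoq, Cidec and Fabp4, named after their values were seen, were instead lowest on knockout 1. The part of fat cells in the Ghr values was not tested, and in RNA of bulk tissue fewer cells of a type and less RNA per cell cannot be told apart.

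Jak2, which encodes the kinase that both receptors use, had the only member probe higher on both knockout arrays. Jak2 probe 1 (A_51_P483231, NM_008413) read 0.85 on knockout 1 and 1.30 on knockout 2, against 0.55 on WT 1 and 0.59 on WT 2. The difference of 0.51 ± 0.27 on the log2 scale (SE, n = 2 per group) had an adjusted p of 0.935 in limma. Knockout 2, the array high in lymphocyte markers, was the highest, and without it the log2 fold change was 0.29. The part of lymphocytes was not tested. Jak2 probe 2 (A_52_P309376), of the same accession and dim, read -3.90 and -2.38 on the knockout arrays, against -2.80 and -3.18 on the WT arrays. The knockout values enclosed the WT values there, and the log2 fold change of -0.16 ± 0.54 had the opposite sign and turned to 0.018 under median scaling and 0.11 after quantile normalization.

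Stat5a, which encodes the STAT5 protein that lactation mainly depends on, had the narrowest interval of the members. Its probe (A_51_P152765, NM_011488) read 2.74 and 2.41 on the knockout arrays, against 2.55 and 2.64 on the WT arrays, with the WT values inside the knockout ones. The log2 fold change was -0.02 ± 0.26 (SE, n = 2 per group) and its 95% interval ran from -0.67 to 0.63, while median scaling gave 0.15 and normexp background correction 0.09. Stat5b, the close relative that growth hormone signalling depends on in liver, had 2 probes of the accession NM_011489. Stat5b probe 1 (A_52_P53698) read 1.70 and 1.19 on the knockout arrays, against 1.99 and 1.65 on the WT arrays, a log2 fold change of -0.37 ± 0.30, with knockout 1 just above WT 2. Stat5b probe 2 (A_51_P281938) was dim and read -2.98 and -2.33 on the knockout arrays, against -2.72 and -2.91 on the WT arrays. Its knockout values enclosed the WT values, with a log2 fold change of 0.16 ± 0.31 that turned to -0.06 after normexp background correction. The dim probes of Jak2 and Stat5b both had their lowest value on knockout 1 and their highest on knockout 2.

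**Figure D2:**
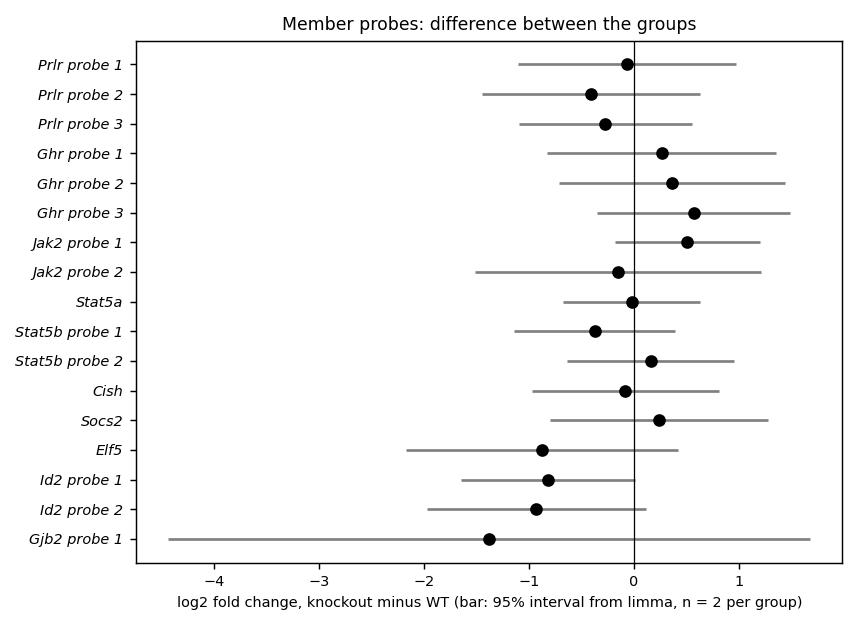
Log2 fold change, knockout minus WT, of the 17 tested member probes, with the 95% interval from limma as a bar (n = 2 per group). Every interval includes 0, the interval of Stat5a is the narrowest at -0.67 to 0.63, and that of Gjb2 probe 1 is the widest at -4.44 to 1.68.

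The feedback inhibitor genes, direct STAT5 targets, had overlapping groups, and their 95% intervals ran from -0.98 to 0.81 for Cish and from -0.80 to 1.27 for Socs2. Cish (A_51_P470715, NM_009895), whose promoter letters are shown above, read 1.75 on knockout 1 and 2.14 on knockout 2, against 2.40 on WT 1 and 1.65 on WT 2. The WT values enclosed the knockout values, and the log2 fold change was -0.08 ± 0.35 (SE, n = 2 per group), or 0.09 under median scaling and 0.12 after normexp correction. Socs2 (A_51_P107362, NM_007706) read 3.15 and 3.38 on the knockout arrays, against 2.50 and 3.56 on the WT arrays. Again WT held both outer values, and the log2 fold change was 0.24 ± 0.41, or -0.29 without WT 1. SOCS2 restrains growth hormone signalling. Its gene ordered the arrays as Prlr probe 1 did, with WT 1 lowest, then knockout 1 and knockout 2, and WT 2 highest. Cish ran the other way within WT, with WT 1 above WT 2 by 0.75, while Socs2 had WT 1 below WT 2 (a difference of -1.06).

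The alveolar effector genes Id2, Elf5 and Gjb2 had the most negative fold changes of the axis with all 4 arrays. Without WT 1 this order was lost: Prlr probes 3 and 1 were lowest at -0.59 and -0.54, and Gjb2 probe 1 was at 0.32. Id2 probe 1 (A_51_P219074, NM_010496) read 2.02 and 2.07 on the knockout arrays, against 3.24 and 2.50 on the WT arrays. Id2 probe 2 (A_52_P240542), of the same accession, read 1.87 and 1.81 on the knockout arrays, against 3.31 and 2.22 on the WT arrays. On each probe the knockout arrays were nearly equal and both lay below both WT arrays. The log2 fold changes were -0.82 ± 0.33 and -0.93 ± 0.41 (SE, n = 2 per group), so knockout stood at 0.565-fold and 0.525-fold of WT. Neither passed the limma test, with unadjusted p of 0.0511 and 0.0703 and an adjusted p of 0.935 for each. WT 1 carried much of the difference: without it the log2 fold changes were -0.46 and -0.39.

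Elf5 (A_51_P455866, NM_010125), the gene of the alveolar ETS factor, had signals of 2370 and 879 on the knockout arrays, against 3757 and 1110 on the WT arrays. Scaled levels were 3.02 and 2.46 on the knockout arrays, against 4.29 and 2.94 on the WT arrays. WT 1 stood above the other arrays, and knockout 1 lay just above WT 2. The log2 fold change was -0.88 ± 0.51 (SE, n = 2 per group) with a 95% interval from -2.17 to 0.41, and it was -0.20 without WT 1. Luminal epithelial markers, of which 10 of 13 had negative fold changes with a median of -0.36, were lowest on knockout 2. Their mean was 0.18 on knockout 1 and -0.56 on knockout 2, against 0.13 on WT 1 and 0.25 on WT 2. The part of epithelial content in the Elf5 values was not tested.

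Gjb2, the connexin gene, varied most. Gjb2 probe 1 (A_52_P382886, NM_008125) had signals of 447 and 70.8 on the knockout arrays, against 1328 and 95.6 on the WT arrays. Levels were 0.62 and -1.18 on the knockout arrays, against 2.79 and -0.60 on the WT arrays, so each group held a high and a low array. The log2 fold change was -1.38 ± 1.21 (SE, n = 2 per group), with the gap between arrays at 1.79 within knockout and 3.39 within WT. It turned to 0.32 without WT 1 and was -3.07 without WT 2. Gjb2 probe 2 (A_51_P267622), of the same accession, had signals of 11.4 and 15.5 on the knockout arrays, against 32.0 and 5.96 on the WT arrays. It was well above background on WT 1 alone and was not tested, and its groups overlapped.

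**Figure D3:**
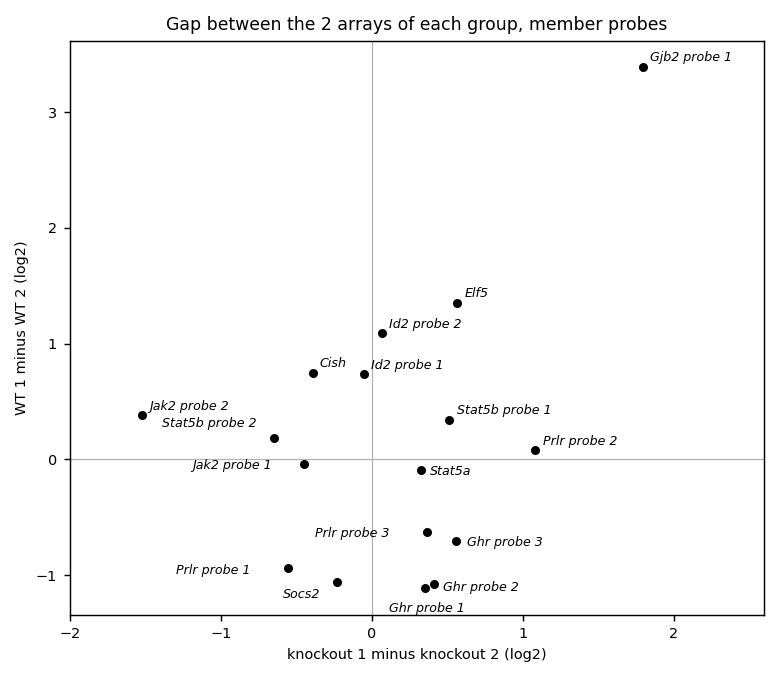
Difference between the 2 arrays of each group for the 17 tested member probes, knockout 1 minus knockout 2 across and WT 1 minus WT 2 upwards, in log2 units. Gjb2 probe 1 lies far out in both directions at 1.79 and 3.39, and Elf5 lies on the same side at 0.57 and 1.35, while the 3 Ghr probes lie above 0 across and below 0 upwards.

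Within the groups the members fell into different array orders. The array numbered 1 was above the array numbered 2 in both groups for 5 of the 17 probes, those of Elf5 and Gjb2 probe 1, Id2 probe 2, Stat5b probe 1 and Prlr probe 2, against 21.4% of all tested probes. Elf5 differed 1.48-fold between the knockout arrays and 2.55-fold between the WT arrays, and Gjb2 probe 1 differed 3.47-fold and 10.5-fold. Proliferation markers had that order too: the mean of 5 genes was 0.67 on knockout 1 and -0.67 on knockout 2, against 1.13 on WT 1 and -1.13 on WT 2. The part of proliferating cells in the Elf5 and Gjb2 values was not tested. The mean of the listed milk genes, some of which STAT5 and ELF5 are known to switch on, had another order. Of the 10 tested, only Csn1s1 and Muc15, named after their values were seen, had array 1 above array 2 in both groups. All 10 tested milk genes had negative fold changes, with a median of -1.54, and their mean was -1.0 on each knockout array, against 1.38 on WT 1 and 0.63 on WT 2. Both knockout arrays lay below both WT arrays for 7 of the 10 milk genes, against 17.8% of all genes. The same held for 2 of the 17 member probes, both of Id2, against 19.0% of all probes. Of the 10 milk genes, 9 cleared the background test on every array. The exception was Wap, which is among the 7 and was named after its values were seen. It cleared that test on 2 arrays only. It read -4.63 and -4.27 on the knockout arrays, against -1.74 and -2.99 on the WT arrays. By these levels Wap entered through the WT arrays, which favoured a negative direction for it.

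**Figure D4:**
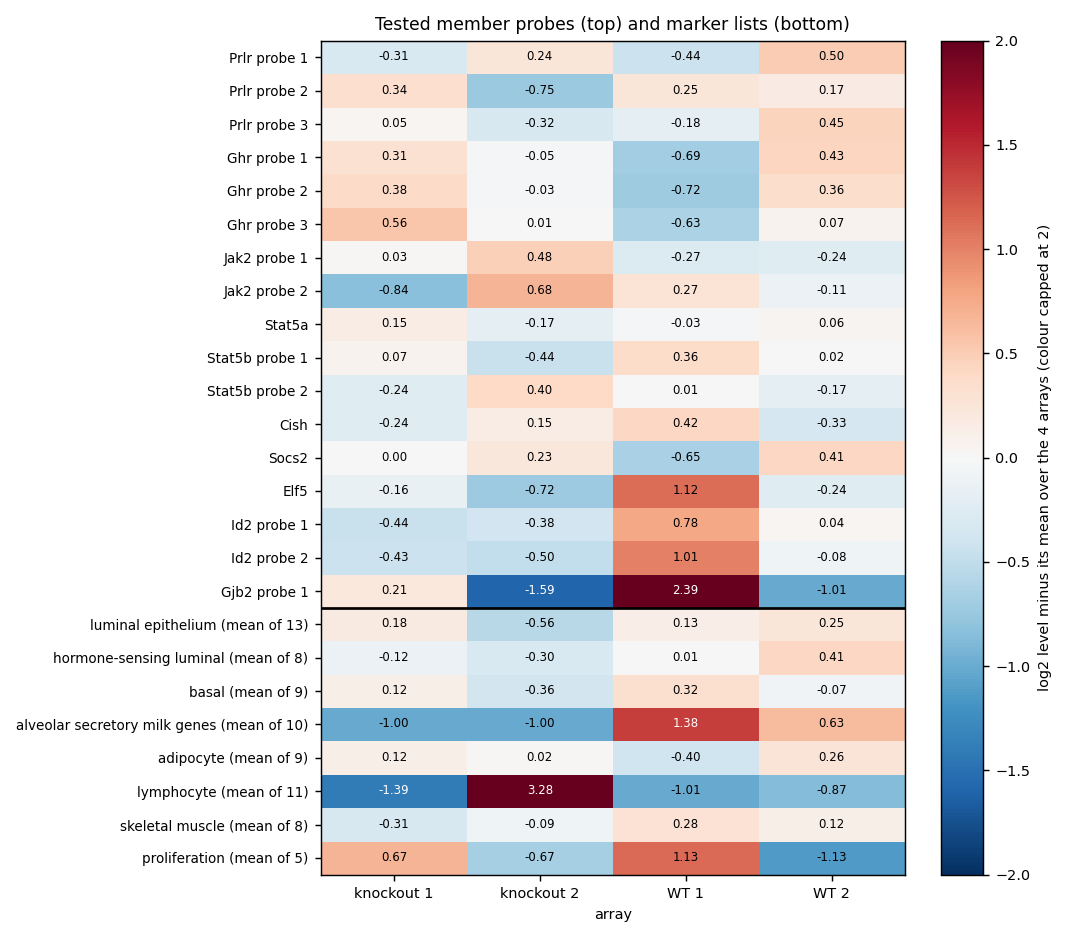
Level of each tested member probe (above the line) and mean level of each marker list (below it) on the 4 arrays, relative to its own mean over the arrays, in log2 units. Gjb2, Elf5 and Id2 are highest on WT 1 (2.39, 1.12, 0.78 and 1.01), as are Cish and Stat5b probe 1 (0.42 and 0.36). Ghr, Socs2, Prlr probe 1 and Jak2 probe 1 are lowest there. The milk genes alone among the lists are near -1.0 on both knockout arrays.

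Genes with the array pattern most like 3 members were sought among 12173 other genes that were well above background on all 4 arrays, by the largest difference between profiles centred on their own means. The 3 nearest to Prlr probe 1 were Tmem252, Stoml1 and Tgfbr3, with largest differences of 0.057, 0.066 and 0.071, though 151 genes lay within 0.25 of it. The 3 nearest to Elf5 were Col7a1, Dpp9 and Ssr2, at 0.070, 0.13 and 0.13, with 16 genes within 0.25. For Gjb2 probe 1 no gene lay within 0.25, and the nearest were Muc15 at 0.32, Lrrc15 at 0.46 and Tnnt1 at 0.62. Muc15, one of the 10 tested milk genes, encodes a membrane mucin found in milk fat globules. It read -1.38 and -2.58 on the knockout arrays, against 0.82 and -2.11 on the WT arrays. These likenesses span 4 arrays and are descriptions.

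The other genes of prolactin, growth hormone and JAK-STAT signalling divided evenly between the directions. Of 55 listed genes 52 were named on the array and 44 were tested, and 0 passed an adjusted p of 0.05 in either direction. At an unadjusted p under 0.05 there was 1, Jak3, against 3.54% of all 13234 tested genes. Fold changes were positive for 21 and negative for 23, with a median of -0.01, as over all tested genes. Both knockout arrays lay above both WT arrays for 8 of the 44 genes, against 17.7% of all genes, and below for 5, against 17.8% of all genes. By brightest tested probe, the 8 were Jak3, Tyk2, Pias3, Sh2b1, Nmi, Bcl6, Pim1 and Nr3c1, and the 5 were Ptpn2, Pias1, Pias2, Grb2 and Igf2. Other tested probes of Nr3c1 gave 0.81 and -0.38, against 0.30 on its brightest. Another probe gave -2.35 for Nfib, -1.31 for Akt1 and 0.57 for Socs4, against -0.19, -0.02 and -0.33 on the brightest. All these genes were named after their values were seen. The ligand genes Prl and Gh were not tested, since their probes did not meet the requirement on background.

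Of the 4 largest absolute fold changes of that list by brightest probe, 3 belonged to genes that blood cells express. Stat4, a STAT of lymphocytes, read -3.67 on knockout 1 and -0.17 on knockout 2, against -3.59 and -3.36 on the WT arrays. Knockout 2 alone was high, and the difference was 1.55 ± 1.11 (SE, n = 2 per group) on the log2 scale. Stat4 was well above background on only 3 of the 4 arrays, so that difference includes a reading near background. Ptpn6, which encodes the phosphatase SHP-1 of blood cells, read -0.80 and 1.54 on the knockout arrays, against -0.90 and -0.58 on the WT arrays, a log2 fold change of 1.11 ± 0.76, or -0.08 on its other tested probe. Jak3, the kinase of lymphocyte cytokine receptors, read 1.40 and 2.08 on the knockout arrays, against 0.87 and 0.78 on the WT arrays. Its log2 fold change was 0.91 ± 0.31 (limma adjusted p = 0.935), or 0.30 on its other tested probe. All 11 tested lymphocyte markers had positive fold changes, and their mean was -1.39 on knockout 1 and 3.28 on knockout 2, against -1.01 and -0.87 on the WT arrays. Only 5 of the 11 were well above background on all 4 arrays, and some entered only through the knockout arrays, which favoured a positive direction. Ms4a1 and Cd79a, named after their values were seen, entered only through the WT arrays, which favoured a negative direction for them. Without knockout 2 the median log2 fold change of the lymphocyte markers was -0.14. The part of lymphocytes in the values of Stat4, Ptpn6 and Jak3 was not tested. Pias2, an inhibitor of STAT signalling, read 2.12 and 1.37 on the knockout arrays, against 2.32 and 2.56 on the WT arrays, a log2 fold change of -0.70 ± 0.34.

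Some further genes were picked after their values were seen. Igf1, a target of growth hormone and STAT5B, read 4.08 and 3.38 on the knockout arrays, against 2.90 and 3.67 on the WT arrays, and so was lowest on WT 1, as Ghr and Socs2 were. Tnfsf11, the gene of RANKL, which luminal cells make in answer to progesterone and prolactin, read -2.96 and -3.85 on the knockout arrays, against -1.72 and -5.71 on the WT arrays. The WT 2 reading was not well above background, so the fold change of Tnfsf11 is not printed here. Tnfsf11 still counts among the 44 tested genes of the pathway list and is drawn with them.

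**Figure D5:**
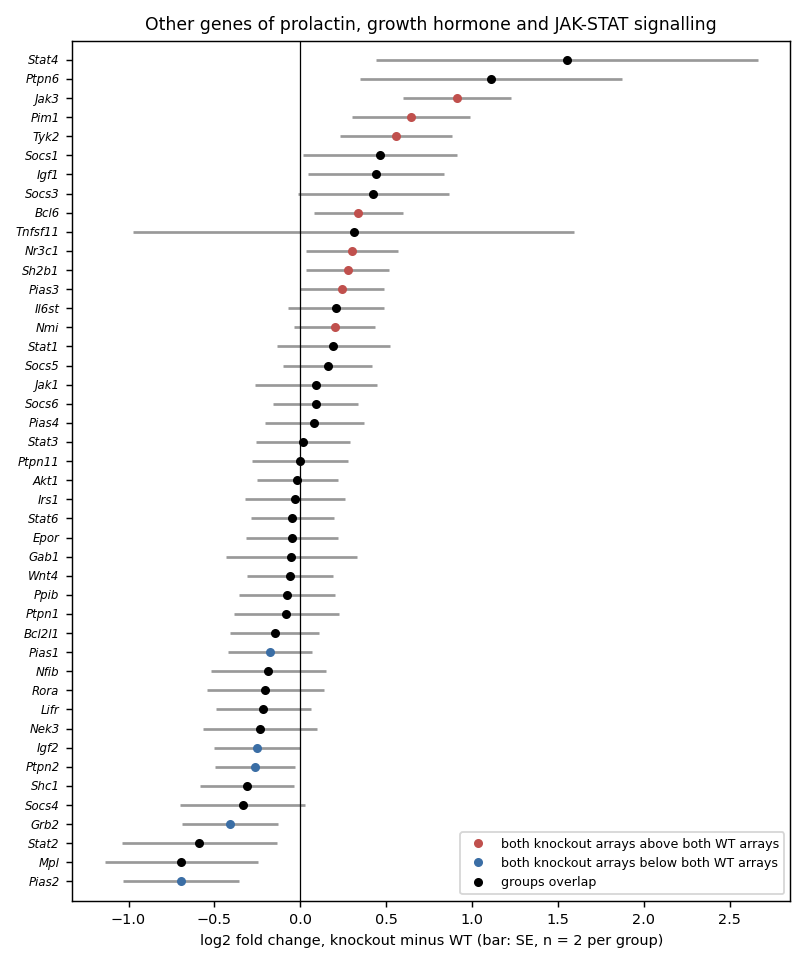
Log2 fold change, knockout minus WT, with its SE, of the 44 tested genes of prolactin, growth hormone and JAK-STAT signalling other than the members, each by its brightest tested probe. Red marks the 8 genes with both knockout arrays above both WT arrays and blue the 5 with both below, and the values spread from -0.70 for Pias2 to 1.55 for Stat4.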

How the data were processed

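The authors deposited 1 scanner file per array. Its processed signal intensity came, per the file headers, from Feature Extraction 11.5.1.1, whereas the submitters' processing notes name version 10.7.3.1. These intensities are corrected for background within an array and not scaled between arrays. The authors also deposited log2 values, and the series' design text names GeneSpring for the bioinformatics without its steps. They matched quantile-normalized log2 signals centred on each probe's median (Pearson r at least 0.99999 across probes) and served as an alternative, with column medians of 0.00626 and -0.00960 for knockout 1 and 2 and -0.0180 and 0.0183 for WT 1 and 2. The description field names EOC cells against the other labels and was not used.

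Levels were log2 intensities from which the 75th percentile of the array was subtracted (as signals, 292 and 160 on the knockout arrays, 191 and 144 on the WT arrays). Control spots and outlier-flagged spots were left out and replicate spots averaged. Probes entered the test if the software marked them well above background on the 2 arrays of one group or the other. Accessions were matched to RefSeq genes (GRCm38.p6, for names), which named 27816 of 41174 probes. The comparison of knockout with WT used lmFit and eBayes (limma 3.58.1, R 4.3.3) without covariates. P-values were adjusted by Benjamini-Hochberg across every probe tested, and the fit was tested on simulated data. Genes of a list are given by their brightest tested probe. The text names all members, then the 4 genes of the pathway list with the largest absolute fold change, and the 3 genes nearest to each of Prlr, Elf5 and Gjb2. Of the marker lists only summaries are given, apart from genes named after their values were seen. The members and lists were chosen with earlier results of these data known. Alternatives were median scaling, quantile normalization, normexp on the median spot signal (the files hold no mean signal), other filters, flagged spots kept, the deposited log2 values, each array left out, a replicate block, another threshold, and, for the pathway list, the mean of a gene's probes.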

Additional observations from a re-analysis of the deposited data

How the results depend on the processing

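The member probes were refitted under 12 other settings, and none passed an adjusted p of 0.05 under any of these. An unadjusted p under 0.05 (limma) was met by 1 member probe of 17 under each of quantile normalization, normexp, the filter on all 4 arrays and the deposited values. Over all tested probes the counts were, in that order, 1140 of 24183, 729 of 24183, 880 of 21363 and 1142 of 24187. The replicate block gave 2 member probes, against 866 of 24183 probes. The other settings that kept every array gave 0 member probes. Of 136 fold changes of members under settings that kept every array, 127 kept their direction and 9 reversed. The other filters, flagged spots kept and the replicate block left every member's fold change unchanged, so none could reverse there. The deposited values nearly repeat quantile normalization. Median scaling adds the same amount to every fold change, which by construction turned 4 small negative ones, to 0.11 for Prlr probe 1, 0.018 for Jak2 probe 2, 0.15 for Stat5a and 0.090 for Cish. The cause of the other reversals was not tested. Normexp gave 0.086 for Stat5a, -0.059 for Stat5b probe 2 and 0.12 for Cish. Jak2 probe 2 was at 0.11 after quantile normalization and at 0.11 in the authors' deposited values. Over all probes, 3 were lower (Scrg1, Csn1s2a and Slc6a2) and 1 higher (Rbbp4) at an adjusted p under 0.05 under median scaling, and 0 in either direction under the other settings. These 4 were named after their values were seen. A threshold of 0.1, tried on the comparison as reported only, also gave 0 in either direction. The median of the pathway list was 0.17 under median scaling, as the median of all genes was.

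With 1 array left out, the remaining array of that group was taken to vary as the other group does. This reversed 11 of the 17 fold changes in at least 1 case. The log2 fold changes then ran from -0.54 to 0.40 for Prlr probe 1, from -0.95 to 0.13 for Prlr probe 2 and from -0.59 to 0.039 for Prlr probe 3. They ran from -0.29 to 0.82 for Ghr probe 1, from -0.18 to 0.90 for Ghr probe 2, from -0.92 to 0.60 for Jak2 probe 2 and from -0.18 to 0.14 for Stat5a. For Stat5b probe 2 the range was -0.16 to 0.48, for Cish -0.46 to 0.29, for Socs2 -0.29 to 0.77 and for Gjb2 probe 1 -3.07 to 0.32. Both Id2 probes and Elf5 stayed negative in each case, from -1.19 to -0.46, from -1.48 to -0.39 and from -1.55 to -0.20. Ghr probe 3 and Jak2 probe 1 stayed positive and Stat5b probe 1 negative, from 0.22 to 0.92, from 0.29 to 0.73 and from -0.63 to -0.12. The median of the pathway list ran from -0.054 to 0.15, the higher value without WT 2. With the replicate number as a block the counts of called probes were 0, the smallest adjusted p of a member was 0.954 and the median of the pathway list was -0.01. The labels do not say that equal numbers pair the samples, and the differences between arrays 1 and 2 of the groups had a Pearson r of 0.065 across probes. Signal over background limits the dim probes of Jak2, Stat5b and Gjb2.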
